A study of Homo sapiens with 4 samples.

Results

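Metallothioneins are small, cysteine-rich proteins that hold zinc and copper ions inside the cell and also capture toxic metals such as cadmium. The genes described here are 6 metallothionein genes (MT1E, MT1F, MT1G, MT1M, MT1X and MT2A), the zinc-sensing transcription factor gene MTF1 and the zinc exporter gene SLC30A1. These 8 genes, of 63856 in the count table, were taken by symbol and Ensembl identifier. The RNA came from MCF10A, a human breast epithelial line that does not form tumours, and was sequenced from 2 replicates of wild type cells and 2 of cells that stably overexpressed HSF1 after lentiviral transduction with HSF1 cDNA in the pLVX vector and puromycin selection (HSF1-pLVX). HSF1 is the main transcription factor of the heat shock response. Both variants grew in the same medium with horse serum, insulin, hydrocortisone, EGF and cholera toxin, as the labels list it. Empty-vector cells were not analysed here, so HSF1, the vector, its selection and separate culture cannot be told apart as sources of a difference.

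Excess zinc in the cytosol is bound by MTF1, which then attaches to short metal response elements in the promoters of metallothionein genes and of SLC30A1 and raises their transcription. The ZnT proteins of the SLC30 family move zinc out of the cytosol, and the ZIP proteins of the SLC39 family move it in. Metallothionein genes are also known to respond to glucocorticoids and to several kinds of stress.

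Among the members, MT2A, MT1E and MT1X rose in HSF1-pLVX cells, by 2.91-fold, 6.04-fold and 6.67-fold in group means of normalized counts. MTF1 and SLC30A1 fell to 0.522 and 0.485 of their wild type level. MT1F was at a low level and slightly lower, while MT1G and MT1M were near the limit of detection.

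The promoters of MT2A, MT1X, SLC30A1 and MTF1 are shown because sequences were at hand for these members only. The RefSeq promoter table had an entry for these 4 of the 8 members and none for MT1E, MT1F, MT1G and MT1M. MT1E, which also rose, is therefore missing here. Each window holds the 250 bases before the RefSeq start on GRCh38.p14, written 5′ to 3′ in the direction of the gene, with capitals marking each match to the metal response element core TGCNCNC on either strand. The windows are chr16:56608334-56608583 (plus strand) for MT2A, chr16:56682220-56682469 (plus strand) for MT1X, chr1:211579162-211579411 (minus strand) for SLC30A1 and chr1:37859593-37859842 (minus strand) for MTF1.
MT2A: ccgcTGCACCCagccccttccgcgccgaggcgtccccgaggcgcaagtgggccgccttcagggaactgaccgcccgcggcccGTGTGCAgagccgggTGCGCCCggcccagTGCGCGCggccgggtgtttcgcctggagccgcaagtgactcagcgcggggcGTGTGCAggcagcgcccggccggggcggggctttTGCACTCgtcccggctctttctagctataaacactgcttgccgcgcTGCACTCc
MT1X: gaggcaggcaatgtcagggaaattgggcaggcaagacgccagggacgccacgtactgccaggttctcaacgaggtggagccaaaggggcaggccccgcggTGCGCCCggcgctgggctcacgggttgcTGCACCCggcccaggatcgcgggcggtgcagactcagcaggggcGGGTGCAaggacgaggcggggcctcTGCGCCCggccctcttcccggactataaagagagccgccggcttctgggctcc
SLC30A1: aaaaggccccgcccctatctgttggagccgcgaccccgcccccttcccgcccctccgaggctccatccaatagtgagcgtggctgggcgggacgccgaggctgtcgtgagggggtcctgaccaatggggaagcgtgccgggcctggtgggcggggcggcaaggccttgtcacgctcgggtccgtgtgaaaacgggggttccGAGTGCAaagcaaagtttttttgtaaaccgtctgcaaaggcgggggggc
MTF1: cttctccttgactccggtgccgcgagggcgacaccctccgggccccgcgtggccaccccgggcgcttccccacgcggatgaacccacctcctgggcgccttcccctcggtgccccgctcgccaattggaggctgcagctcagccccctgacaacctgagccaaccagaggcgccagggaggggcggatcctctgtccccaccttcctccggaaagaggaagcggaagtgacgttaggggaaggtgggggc

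The MT2A window held 7 matches to TGCNCNC, a number reached by 0.0854% of the 35116 promoters of the table. The MT1X window held 4, a number reached by 1.77% of them, and SLC30A1 held 1, where 49.1% of all promoters held 1 or more. The MTF1 window held 0. The RefSeq starts are not the starts of the counted genes. The SLC30A1 window lies before its counted gene, which begins at base 211578742 on the minus strand. The bases nearest to that start were therefore not searched. The MT2A window lies inside its counted gene (56608199 to 56609497). Both metallothionein windows also held a TATA box (TATAAA), found in 10.7% of all promoters, at bases -29 to -24 from the start in MT2A and -30 to -25 in MT1X. The GC box (GGGCGG, 42.6% of all promoters) matched 2 times in MT2A, 2 in MT1X, 6 in SLC30A1 and 1 in MTF1, and in MT1X one GC box overlapped a metal response element. The heat shock element, searched as GAANNTTC or TTCNNGAA and present in 11.6% of all promoters, had 0 matches in these 4 windows. These counts describe letters in the windows and not bound factors.

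**Figure D1:**
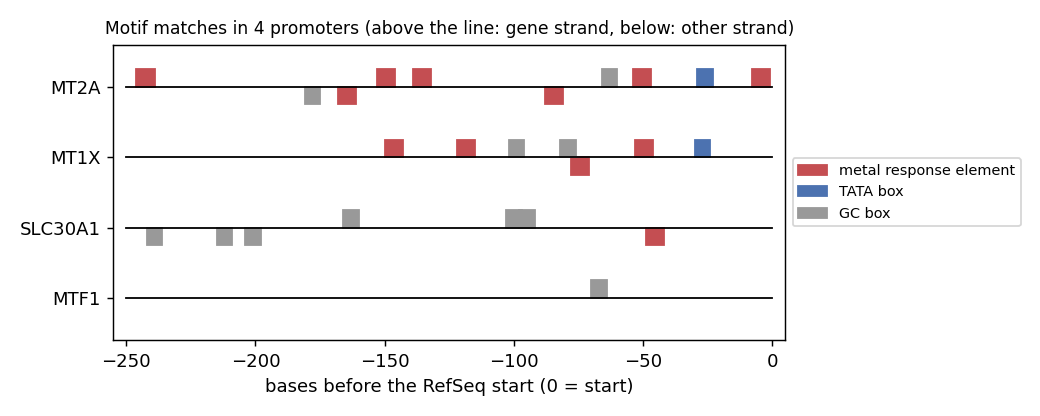
Matches to the metal response element core, the TATA box and the GC box in the 250 bases before the start of MT2A, MT1X, SLC30A1 and MTF1. The x axis gives bases before the start, and boxes above a line lie on the strand of the gene. MT2A carries 7 metal response element matches, MT1X 4, SLC30A1 1 and MTF1 0.

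The libraries held between 18688109 and 24184285 counts. The mean level of HSF1 itself was 195 ± 7.94 CPM (counts normalized to library size with TMM factors, SD, n = 2) in wild type against 991 ± 11.5 CPM (SD, n = 2) with HSF1-pLVX, and the log2 fold change was 2.35 (SE 0.100, adjusted p = 1.14e-10 by the edgeR quasi-likelihood test). Of 15830 genes that passed the filter on low counts, 32.7% were called higher and 33.2% lower at an adjusted p of 0.05 (65.9% in either direction), so a call alone says little about a single gene. With 2 libraries a side, the smallest p of an exact permutation test is 0.33, and the edgeR test therefore borrows the spread of other genes. Groups without overlap likewise say little about a single gene, and their share over all tested genes was not counted. The summed level of 9 mammary epithelial markers was 13350 and 13270 CPM in the wild type libraries and 7808 and 8309 CPM in the HSF1-pLVX libraries. The fall of this sum rests on KRT17, at 7223 and 7165 CPM in wild type against 1183 and 1256 CPM in HSF1-pLVX cells. Of the 9 markers, 4 were called higher and 5 lower. TP63 and KRT5 were past 2-fold higher (log2 fold change 3.48 and 1.12). KRT14, KRT17, KRT18, CDH1 and EPCAM were past 2-fold lower (-3.55, -2.56, -1.73, -1.43 and -1.36). The summed level of 11 markers of fibroblasts, leukocytes and endothelial cells was 8.36 and 11.4 CPM in the wild type libraries and 15.5 and 15.4 CPM in the HSF1-pLVX libraries. Most of it was COL1A1, which was not called, while DCN, a fibroblast proteoglycan gene, rose from 1 and 3 counts to 94 and 87 (log2 fold change 5.16, adjusted p = 1.12e-07 by the edgeR quasi-likelihood test). Of the 11 genes, 4 had 3 counts or fewer in every library, among them PTPRC with 0 counts in all libraries. The part of these marker shifts in the metallothionein result was not tested. In bulk RNA, fewer cells of a type and less RNA per cell cannot be told apart.

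MT2A (ENSG00000125148.6, chromosome 16 of hg38, 56608199 to 56609497) encodes the metallothionein that was most abundant here. It had 712 and 623 CPM in wild type replicates 1 and 2, from 13359 and 11572 counts. In HSF1-pLVX replicates 1 and 2 it had 1787 and 2092 CPM, from 44866 and 41565 counts. Both HSF1-pLVX libraries were above both wild type libraries. The group means were 667 ± 62.8 and 1940 ± 216 CPM (SD, n = 2 each), for a log2 fold change of 1.54 (SE 0.118, adjusted p = 4.11e-08 by the edgeR quasi-likelihood test).

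MT1E (ENSG00000169715.14, 56625475 to 56627112 on the same chromosome) encodes a metallothionein of the MT1 group. It was at 72.8 and 62.4 CPM in the wild type libraries and at 357 and 460 CPM in the HSF1-pLVX libraries. The groups did not overlap, and the second HSF1-pLVX library was the higher one. The log2 fold change was 2.59 (SE 0.127, adjusted p = 4.5e-10 by the edgeR quasi-likelihood test). MT1X (ENSG00000187193.8, 56682424 to 56684196), another MT1 gene, had 75 and 84 counts in wild type against 536 and 704 in HSF1-pLVX cells. These were 3.995 and 4.521 CPM against 21.4 and 35.4 CPM, again without overlap and with the larger spread among the HSF1-pLVX libraries. The log2 fold change of MT1X was 2.73 (SE 0.216, adjusted p = 6.08e-08 by the edgeR quasi-likelihood test). Of the 6 members tested, 3 were called higher and past 2-fold, where 14.9% of all tested genes were.

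MT1F (ENSG00000198417.6, 56657694 to 56660698), which lies between MT1E and MT1X, did not rise with them. It had 47 and 65 counts in wild type against 38 and 45 in HSF1-pLVX cells, or 2.50 and 3.50 CPM against 1.51 and 2.27. The libraries of the groups came close to each other without overlap. The log2 fold change was -0.68 (95% interval -1.30 to -0.07) with an adjusted p of 0.0481 in edgeR's quasi-likelihood test. This call was lost under DESeq2's Wald test (adjusted p = 0.154), with library size as the only normalization (adjusted p = 0.0838), at a threshold of 0.01, and without wild type replicate 2, HSF1-pLVX replicate 1 or HSF1-pLVX replicate 2 (adjusted p = 0.271, 0.334 and 0.080), and its adjusted p ranged from 0.0107 to 0.334 over the alternatives. The ratio of MT1X to MT1F counts was 1.596 and 1.292 in the wild type libraries and 14.1 and 15.6 in the HSF1-pLVX libraries.

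MT1G (ENSG00000125144.13, 56666731 to 56668065) and MT1M (ENSG00000205364.3, 56632233 to 56633986) did not pass the filter on low counts. MT1G had 1 and 0 counts in wild type against 2 and 9 in HSF1-pLVX cells. The ratio of its summed counts, scaled to library size, was 9.14 with a 95% exact interval of 1.33 to 393 that covers counting error only, and most of its counts came from HSF1-pLVX replicate 2. MT1M had 0 and 0 counts in wild type against 3 and 0 in HSF1-pLVX cells. Both groups were at or under a floor of 3 counts per library (0.1195 to 0.1615 CPM), so no fold is given and a difference was not detectable at this depth.

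Because the metallothionein genes are similar in sequence, their counts were also summed, which removes any shift of reads between members. The sum of the 6 genes was 791 and 693 CPM in the wild type libraries and 2167 and 2591 CPM in the HSF1-pLVX libraries. The means of 742 ± 69.1 and 2379 ± 300 CPM (SD, n = 2 each) differed 3.21-fold, a log2 ratio of 1.68. Within replicate numbers 1 and 2 it was 1.45 and 1.90, and with each library left out it lay between 1.55 and 1.80. The sum took 0.0725 ± 0.00508% of all counts in wild type against 0.242 ± 0.0243% in HSF1-pLVX cells. Adding the other 15 metallothionein genes and pseudogenes of the table gave a log2 ratio of 1.69.

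The sum rests mostly on MT2A, and its make-up differed between the variants. MT2A supplied 90.0% (95% Wilson interval 89.5 to 90.4) and 89.8% (89.3 to 90.4) of the metallothionein counts in wild type replicates 1 and 2. In HSF1-pLVX replicates 1 and 2 it supplied 82.5% (82.2 to 82.8) and 80.8% (80.4 to 81.1). The share of MT1E was 9.20% and 9.01% in wild type against 16.5% and 17.8% in HSF1-pLVX cells, and that of MT1X was 0.505% and 0.652% against 0.985% and 1.37%. The counts of MT1E per count of MT2A were thus 0.102 and 0.100 in wild type against 0.200 and 0.220 in HSF1-pLVX cells. The intervals cover counting error only.

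**Figure D2:**
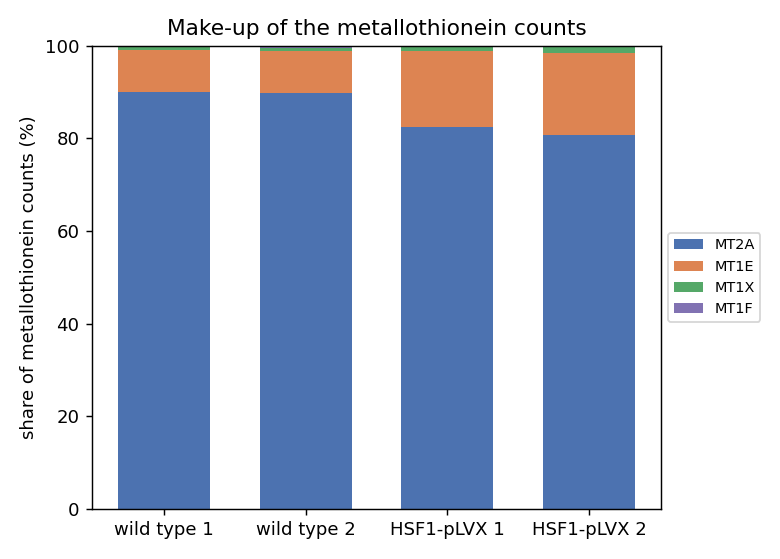
Stacked bars of the share of metallothionein counts (percent of the 6 genes' sum, y axis from 0) supplied by MT2A, MT1E, MT1X and MT1F in each library. MT1G and MT1M are not drawn, with at most 0.0175% in any library. MT2A fills 90.0% and 89.8% of the bar in wild type against 82.5% and 80.8% in HSF1-pLVX cells, and MT1E takes most of the rest.

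Shared sequence between these genes was measured on the GENCODE 44 transcripts in windows of 76 bases, the read length. None of the 1064 windows of MT2A and none of the 1960 windows of MT1F occurred in another metallothionein gene. In MT1E 1.2% of windows were shared, in MT1X 1.4% and in MT1G 5.4%. These shares refer to exact matches over a whole read, and how reads that match several places were counted is not given in the sources used here.

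Per kilobase of counted length, the wild type order of levels ran from MT2A (514 CPM per kb) through MT1E (64.3), SLC30A1 (13.2), MTF1 (5.76), MT1X (2.40) and MT1F (1.59) to MT1G and MT1M. In HSF1-pLVX cells MT1X stood at 16.01 CPM per kb, above SLC30A1 (6.39) and MTF1 (3.01), while MT2A was at 1493 and MT1E at 388 and MT1F was again the lowest of the 6 tested members. The libraries of neighbours in each order did not overlap, with the exception of MT1G and MT1M. Ranked among the 15830 tested genes by CPM per kb, MT2A moved from position 55 to 20, MT1E from 596 to 87 and MT1X from 8951 to 2483. The counted length of MT2A and of MT1X is 1 unbroken block of exon annotation over the whole gene, so their level per kilobase of spliced transcript would be higher. MT1E, MT1F and MT1G were each counted over 2 blocks, of 1052, 1889 and 750 bases in all. The order rests on these counted lengths and was not tested with transcript lengths.

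The 16 metallothionein genes and pseudogenes on chromosome 16 lie within 119.1 kb (56565049 to 56684196), and 5 of them passed the filter. The fifth tested gene was MT1L (ENSG00000260549.1), a pseudogene between MT2A and MT1E. It had 215 and 186 counts in wild type against 1286 and 1159 in HSF1-pLVX cells. Its log2 fold change was 2.35 (SE 0.111, adjusted p = 3.14e-10 by the edgeR quasi-likelihood test). MT1L shared 0 of its 111 windows of 76 bases with the other genes of the family. It was counted over 411 bases, so these windows need not cover all of its counted sequence. The ratio of MT1E to MT1L counts was 6.35 and 6.24 in wild type against 6.97 and 7.89 in HSF1-pLVX cells. Whether MT1L counts came from MT1E reads was not tested. The other 11 genes of the cluster had fewer than 10 counts in every library, and 5 of them (MT4, MT1CP, MT1B, MT1H and MT1IP) had 0 counts throughout. MT3, known from brain, had 1, 1, 1 and 0 counts in the 4 libraries. MT1A, MT1JP and MT1DP had at most 1, 2 and 3 counts in a library. Outside the cluster, the pseudogenes MT1XP1, MT1P1, MT1P3 and MT2P1 had at most 8, 2, 3 and 1 counts, and MT1HL1 had 0. The MT1H, MT1B and MT4 windows of the promoter table held 8, 5 and 5 matches to TGCNCNC, although these genes had no counts.

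On either side of the cluster, the nearest tested genes had smaller fold changes than MT2A. BBS2, which encodes a cilium protein, was at 21.9 ± 0.840 CPM (SD, n = 2) without and 40.9 ± 1.62 CPM (SD, n = 2) with HSF1-pLVX, for a log2 fold change of 0.90 (adjusted p = 1.04e-06 by the edgeR quasi-likelihood test). NUP93, which encodes a nuclear pore protein, was at 49.3 ± 4.75 and 58.9 ± 0.707 CPM, for a log2 fold change of 0.26 (adjusted p = 0.021 in the same test). Of the 4 tested genes within 130 kb of the cluster, NUDT21 also rose, by 1.01, while OGFOD1 fell by 0.50 on the log2 scale.

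**Figure D3:**
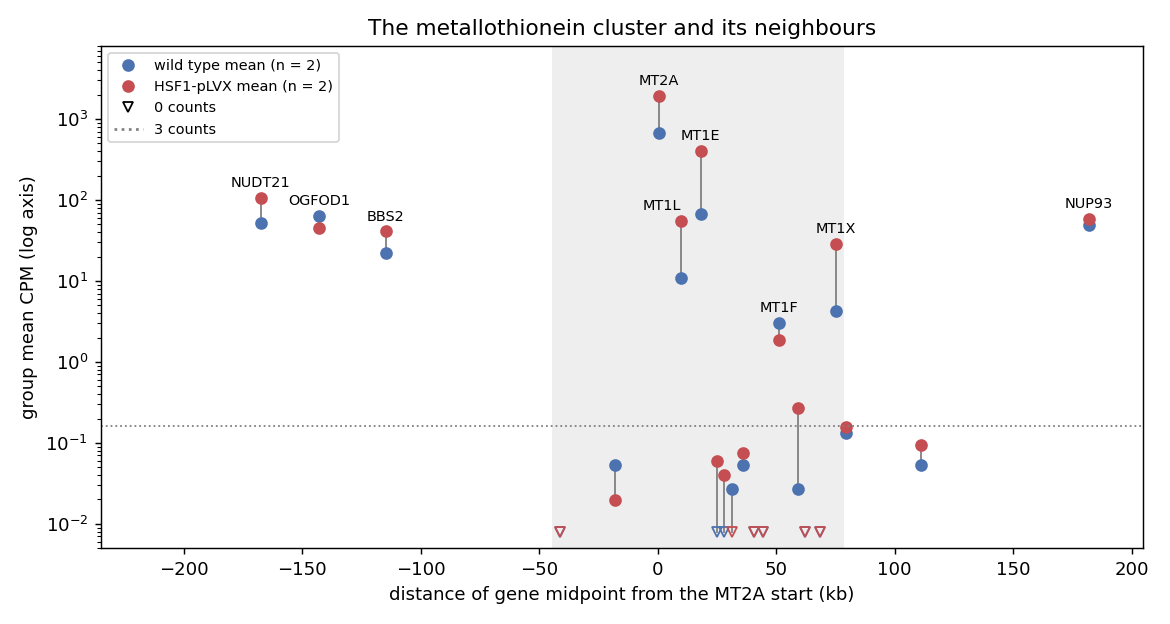
Group mean CPM on a log axis of wild type and HSF1-pLVX cells against the distance of each gene's midpoint from the MT2A start in kb, for genes with a symbol within 130 kb of the metallothionein cluster (grey area). Tested genes carry their names, and open triangles mark 0 counts. MT2A, MT1L, MT1E and MT1X show the longest lines between the group means among the tested genes, MT1F lies lower in HSF1-pLVX cells, and 11 genes of the cluster are near or under the line of 3 counts.

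MTF1 (ENSG00000188786.9, chromosome 1, 37809567 to 37859620), the zinc sensor, moved in the opposite direction to MT2A, MT1E and MT1X. It was at 45.3 and 47.2 CPM in the wild type libraries and at 26.1 and 22.2 CPM in the HSF1-pLVX libraries, with no overlap. Its log2 fold change was -0.93 (SE 0.099, adjusted p = 1.28e-06 by the edgeR quasi-likelihood test). SLC30A1 (ENSG00000170385.9, chromosome 1, 211571568 to 211578742) encodes the zinc exporter of the plasma membrane. It had 65.8 and 78.5 CPM in wild type against 35.1 and 34.9 CPM in HSF1-pLVX cells, for a log2 fold change of -1.04 (SE 0.097, adjusted p = 3.1e-07 by the edgeR quasi-likelihood test). With MT1F, these were the 3 members called lower of 6 tested, where 33.2% of all tested genes were called lower. MTF1 and SLC30A1 stayed lower, and past the threshold, without each library in turn. SLC30A1 was 2-fold lower, as were 14.0% of all tested genes.

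Other genes known as targets of MTF1 were taken as a short list of 4. GCLC, the catalytic subunit of the rate-limiting enzyme of glutathione synthesis, rose from 61.8 ± 1.86 to 131 ± 0.359 CPM (SD, n = 2 each), for a log2 fold change of 1.09. PGF, a growth factor of the VEGF family, rose from 3.43 ± 0.404 to 32.9 ± 2.36 CPM, for a log2 fold change of 3.26. Their adjusted p-values were 4.56e-08 and 1.03e-10 in edgeR's quasi-likelihood test. SLC39A10, a zinc importer that MTF1 is known to repress, had a log2 fold change of -0.21 (95% interval -0.44 to 0.02) that was not called. SLC30A2 had between 3 and 8 counts and was not tested.

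Among the zinc transporters, more genes were called lower than higher. Of 10 SLC30 exporter genes 6 were tested, of which 0 were called higher and 3 lower, and of 14 SLC39 importer genes 10 were tested, of which 1 was called higher and 5 lower, beside 32.7% higher and 33.2% lower among all tested genes. Over the 16 tested transporters the median log2 fold change was -0.23, against 0.02 over all genes tested. At an adjusted p of 0.01 the number of transporters called lower was 6 in place of 8. Over all tested genes it was 4490 in place of 5253. Besides SLC30A1, the exporter gene SLC30A4, whose product loads zinc into vesicles, was past 2-fold, with 17.2 ± 0.731 CPM in wild type against 8.25 ± 1.57 CPM with HSF1-pLVX (log2 fold change -1.05). Among the importers, SLC39A4, mutated in the zinc deficiency acrodermatitis enteropathica, fell from 29.6 ± 1.79 to 13.4 ± 0.718 CPM (log2 fold change -1.14). The importer called higher was SLC39A8, at a log2 fold change of 0.44 (SE 0.087). Smaller falls were measured in SLC39A13 (-0.86), SLC39A11 (-0.76), SLC39A3 (-0.32), SLC39A9 (-0.30) and SLC30A9 (-0.25). SLC30A5, SLC30A6 and SLC30A7, zinc transporters of the secretory pathway, had log2 fold changes of 0.09, 0.16 and -0.05 that were not called, with 95% intervals that together span -0.30 to 0.36. SLC39A7 was listed at 0 counts in all libraries, and so were the genes on either side of it on chromosome 6, apart from 1 count of RXRB, so no level can be read for it. The count table also lists 5637 genes on contigs outside the main chromosomes.

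Metallothioneins bind copper as well as zinc, and 7 copper genes were examined. Of these, 2 were called higher and 4 lower, so 6 of 7 were called where 65.9% of all tested genes were. ATOX1, the chaperone that hands copper to the export pumps, fell from 131 ± 6.93 to 49.9 ± 1.15 CPM (SD, n = 2 each), for a log2 fold change of -1.40. ATP7A, one of these pumps, fell by 1.17 on the log2 scale and SLC31A2, a relative of the copper importer, fell by 1.66. SLC31A1, the copper importer itself, rose by 0.39, and CCS, the chaperone of superoxide dismutase, by 0.83. ATP7B had a log2 fold change of -0.15 that was not called. COX17, which serves cytochrome oxidase, fell by 0.71. The largest adjusted p among the 6 called copper genes was 0.000963 in edgeR's quasi-likelihood test.

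**Figure D4:**
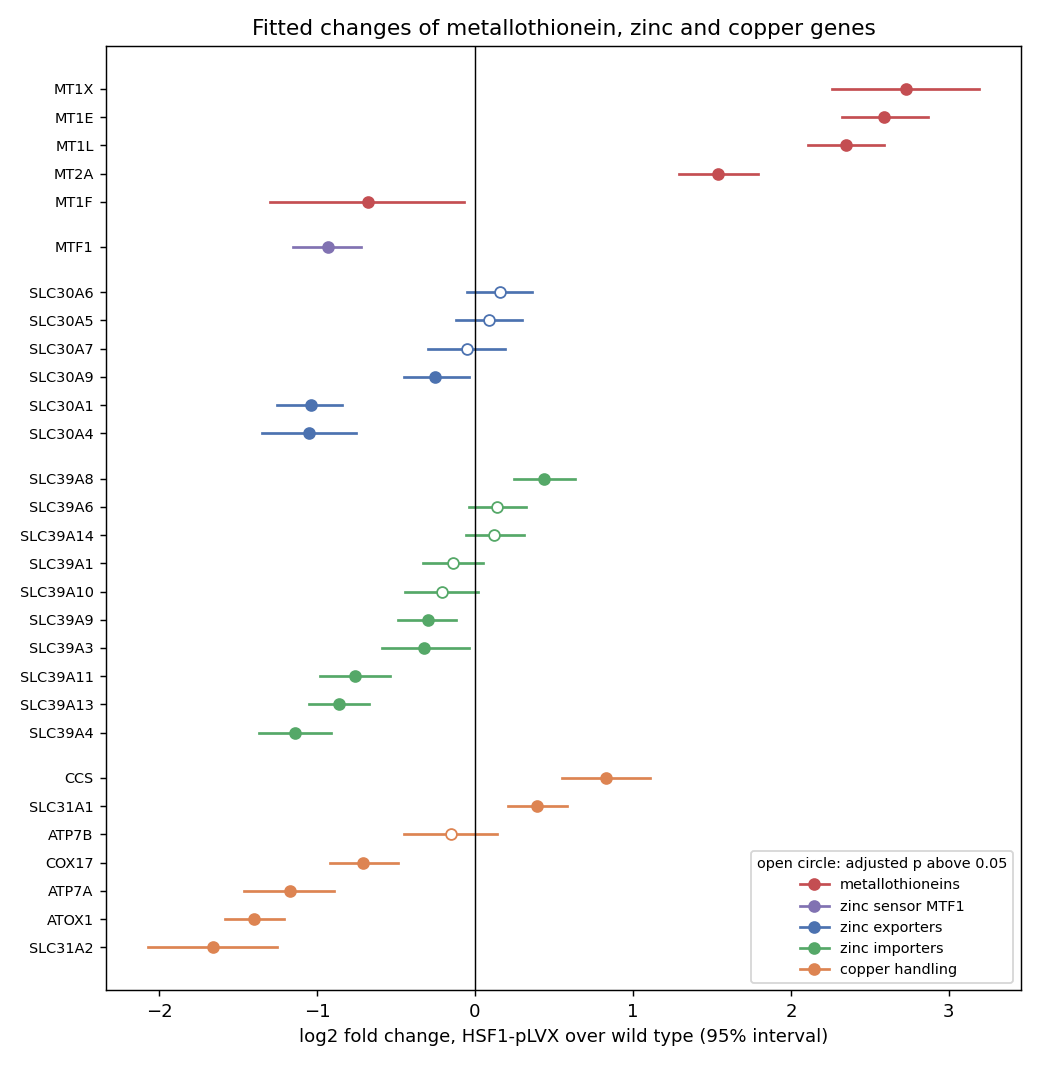
Fitted log2 fold changes of HSF1-pLVX over wild type cells with 95% intervals from edgeR's quasi-likelihood fit, for the tested metallothionein genes, MTF1, the SLC30 and SLC39 zinc transporters and the copper genes. Filled circles mark an adjusted p of 0.05 or less. MT1X, MT1E, MT1L and MT2A lie at 1.54 to 2.73, MTF1 and SLC30A1 at -0.93 and -1.04, and the 16 tested zinc transporters between -1.14 and 0.44.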

How the data were processed

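The authors aligned paired-end reads of 76 bases to hg38 with HISAT2 2.0.5, processed them with SAMtools 1.13 and counted them per gene with featureCounts 1.6.5. The deposited table holds raw counts of 63856 genes. Settings for strand and for reads with several matches are not given in the sources used here. A second deposited table holds values normalized with DESeq2 1.32.0 on a log2-like scale, used only as an alternative. Of 20504 genes matched by symbol, 19719 lay within 0.001 of DESeq2's variance-stabilizing transformation of the counts. This scale has a floor of 3.118, so its differences at low counts are not log2 fold changes. Symbols came from GENCODE 44.

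The comparison used R 4.3.3 and the quasi-likelihood test of edgeR 4.0.16 (TMM, filterByExpr, no replicate block, Benjamini-Hochberg adjustment over 15830 genes, calls at 0.05). CPM are TMM-scaled. Alternatives were other normalizations, no filter, DESeq2 1.42.0, a robust prior, a stricter threshold, blocks and left-out libraries. No label says that a replicate number marks a shared culture, and same-numbered deviations correlated at -0.015 over all tested genes. Replicates of a variant differed by more than sampling noise (chi-square per degree of freedom 4.39 and 5.30). The replicates are called biological, without more on the cultures. The p-values of the main fit rest on the spread between these libraries, taken largely from other genes (prior degrees of freedom 11.9).

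Members and lists were chosen with earlier results of these data known. Named genes were the members, the other metallothionein genes, list genes called beyond a log2 fold change of 1, the nearest tested neighbours and the 5 most alike genes. Others were named after their values were seen, as parts of small counts. One neighbouring gene is not reported here.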

Additional observations from a re-analysis of the deposited data

How the results depend on the processing

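MT2A, MT1E, MT1X, MTF1 and SLC30A1 kept their direction and their call under all 12 alternatives with a test. Over these, the log2 fold change ranged from 1.43 to 1.65 for MT2A, 2.41 to 2.77 for MT1E, 2.33 to 3.06 for MT1X, -1.05 to -0.82 for MTF1 and -1.15 to -0.93 for SLC30A1. The largest adjusted p among them was 0.0103 (SLC30A1 without HSF1-pLVX replicate 2). MT1F kept its direction, from -0.97 to -0.40, and lost its call in 6 settings. With each library left out, 1 library stands for its group and is assumed to vary like the other. Without the filter, with the replicate block and without wild type replicate 1 or 2, edgeR's prior degrees of freedom were infinite. In those fits the spread came from other genes only, and a gene's own spread did not count. With the crossed replicate block (361) it counted little. The threshold of 0.01 was applied to the main fit. The number of members called higher was 3, or 4 without the filter on low counts, where MT1G was added (adjusted p = 0.048), and the number called lower was 2 or 3. The number of zinc transporters called higher was 1, or 2 without the filter, and with each library left out the number called lower lay between 5 and 8.

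With the replicate block, the number of members called was 3 higher and 3 lower, as without it, and the mean of the within-pair log2 ratios of the metallothionein sum was 1.68. The block left all calls of members as they were, but in that fit the members' own spread did not count. Same-numbered deviations correlated at -0.015 over all tested genes and at -0.114 over 9672 genes above 8 CPM. With the crossed replicate block, 5429 genes were called higher, against 5138 with the block and 5175 without. On the deposited normalized values MT1F differed by -0.53, which on that scale is not a log2 fold change. The depth limits MT1G and MT1M, since 3 counts per library correspond to 0.1195 to 0.1615 CPM.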

Other observations

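The culture medium of both variants contains hydrocortisone, and glucocorticoid-responsive genes are another group to which metallothionein genes are known to belong. The list of 9 genes tested also holds NR3C1, the receptor gene, which is among those called higher. Of the 9, 4 were called higher and 3 lower, beside 32.7% higher and 33.2% lower among all genes tested. The median log2 fold change of the 9 was 0.17 against 0.02 over all genes tested. FKBP5, a co-chaperone of the glucocorticoid receptor, rose from 188 ± 18.0 to 789 ± 53.8 CPM (SD, n = 2 each), for a log2 fold change of 2.07. TSC22D3, which encodes the glucocorticoid-induced leucine zipper protein, rose from 21.8 ± 0.0315 to 161 ± 17.7 CPM (log2 fold change 2.89), and ZBTB16, a zinc finger transcription factor gene, from 10.89 ± 1.322 to 46.9 ± 4.84 CPM (2.10). ERRFI1, a feedback inhibitor of the EGF receptor, fell from 356 ± 33.1 to 143 ± 4.69 CPM (-1.31). The largest adjusted p of these 4 genes was 2.86e-08 in edgeR's quasi-likelihood test. NR3C1, the gene of the glucocorticoid receptor, had a log2 fold change of 0.37 (standard error 0.092). PER1 and KLF9 had log2 fold changes of 0.17 and 0.15 that were not called, and SGK1 and DUSP1 fell by 0.42 and 0.89 on the log2 scale. The part of this group's shift in the metallothionein result was not tested.

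The genes whose centred log2 CPM over the 4 libraries lay nearest to the metallothionein sum were EIF4EBP1, SCPEP1, KCNAB2, C14orf93 and NOB1, at distances of 0.039 to 0.086. Of 13733 genes compared, 698 lay within a distance of 0.5.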
